A study of Homo sapiens with 6 samples.

Results

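The SOX genes encode transcription factors that bind DNA through an HMG box, a domain related to that of the testis-determining factor SRY. Members are sorted into subgroups by the likeness of their sequences. SOX4, SOX11 and SOX12 form the SOXC subgroup and act in progenitor cells of many tissues, SOX5, SOX6 and SOX13 form SOXD, SOX8 and SOX9 belong to SOXE, SOX7 to SOXF, and SOX15 to SOXG. SOX4 is best known outside development for its induction by TGF-beta and its part in epithelial to mesenchymal transition (EMT), the loss of epithelial features by cells that become motile.

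The 10 SOX genes SOX4, SOX5, SOX6, SOX7, SOX8, SOX9, SOX11, SOX12, SOX13 and SOX15 were taken by symbol from the 60660 genes of the count files, and each of the 10 was found. They were measured by RNA-sequencing of poly-A RNA from 12Z cells, an established epithelial line derived from endometriosis, in which endometrium-like tissue grows outside the uterus. Control cells (3 libraries) received a non-targeting siRNA, and knockdown cells (3 libraries) received siRNA LINC01133a against the long noncoding RNA LINC01133 at 10 nM, both delivered with Lipofectamine RNAiMAX. All cells were lysed 72 h after transfection, and the study names 1 cell line and 1 targeting siRNA for these libraries. Effects of that siRNA on other RNAs and effects of losing LINC01133 therefore cannot be told apart in them. The study used further LINC01133 siRNAs in other assays, which are not analysed here. The comparison asks which SOX genes 12Z cells express and whether the rise of SOX4, which the study followed up after sequencing these same libraries, was shared by its relatives.

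The libraries held 27742562 to 37551194 counts on genes. LINC01133 itself had 859, 726 and 808 counts in control libraries 1 to 3 and 153, 135 and 122 in knockdown libraries 1 to 3, which edgeR fitted as -2.63 on the log2 scale with a standard error of 0.070, so the labels and the target went together. Among the markers of the labelled cell type, KRT8, KRT18 and KRT19 were abundant, whereas EPCAM had 13.6 ± 4.33 normalized counts in control cells (SD, n = 3), and the mesenchymal markers VIM and COL1A1 were abundant too. Epithelial markers passed the cutoffs as lower in 4 of 6 cases (KRT7, KRT8, KRT19 and CDH1), against 6.43% of all genes tested. CDH1 fell the most, from a mean of 412 normalized counts in control to 102 in knockdown cells. The summed normalized count of the 6 epithelial markers ranged from 199952 to 210812 in control and from 127729 to 133727 in knockdown libraries. Mesenchymal or stromal markers passed as lower in 1 of 6 cases, the fall of CDH2, against 6.43% of all genes tested. Their sums were 165340 to 183666 in control and 139721 to 147914 in knockdown libraries. By edgeR adjusted p alone, 5 of 6 markers were lower in the epithelial and in the mesenchymal list, against 25% of all genes tested. Of the 4 endothelial markers, PECAM1 and CLDN5 were near 0 and CDH5 was higher, with sums of 79.8 to 91.8 and 178 to 220. Of the 4 leukocyte markers, CD3E was at 0 and CD14 was lower, with sums of 1617 to 1823 and 846 to 907. The part of these shifts in the SOX results was not tested, and in a bulk sample fewer cells of a kind and less RNA per cell cannot be told apart.

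SOX4, SOX11 and SOX12 are shown first in a coding stretch of their HMG box, because the question turns on how closely related they are and on whether their reads could be confused. The stretch comes from the annotated transcripts of GENCODE v44 and is the first 60 bases of the 210 compared, 5′ to 3′, with capitals where all 3 genes have the same base (47 of 60).
SOX4: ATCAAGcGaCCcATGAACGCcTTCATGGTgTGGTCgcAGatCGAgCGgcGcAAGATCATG
SOX11: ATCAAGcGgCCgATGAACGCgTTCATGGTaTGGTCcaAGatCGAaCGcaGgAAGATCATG
SOX12: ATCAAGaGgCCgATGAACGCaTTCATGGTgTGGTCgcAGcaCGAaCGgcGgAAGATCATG
Over the 210 coding bases of the box, 88.6% of the bases of SOX11 and 85.7% of those of SOX12 were identical to SOX4. The same share was 75.2% for SOX9, 72.4% for SOX8, 71.0% for SOX15, 70.0% for SOX7, 66.7% for SOX13, 61.9% for SOX5 and lowest for SOX6, so the SOXC genes were the nearest to SOX4 by this measure as well. The longest run of bases that SOX4 shared exactly with another member's transcript was 33 bases, with SOX12. None of the 50-base words of the SOX4 and SOX12 transcripts occurred in an annotated transcript of another gene, in the same orientation.

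SOX12 was the most abundant of the 10 SOX genes in 12Z cells, followed by SOX4 and SOX13, while SOX11, the closest relative of SOX4, gave almost no reads. Levels were compared between genes as FPKM, the count scaled by the normalized library size and divided by the kilobases of exon that a gene has over all its GENCODE v44 isoforms.
The level of SOX12 was 11.5, 10.7 and 10.5 FPKM in control libraries 1 to 3 and 11.7, 12.2 and 12.1 in knockdown libraries 1 to 3. SOX4 had 3.77, 3.803 and 4.47 FPKM in control libraries and 6.89, 6.77 and 6.75 in knockdown libraries. SOX13, a SOXD factor found in many adult tissues, had 1.56, 1.58 and 1.62 FPKM in control libraries and 1.497, 1.58 and 1.44 in knockdown libraries. The 3 genes kept this order in 6 of 6 libraries, with no overlap in level between them. Averaged over the 6 libraries, the FPKM of SOX12 was above that of 74.3% of the tested genes, that of SOX4 above 56.3% and that of SOX13 above 33.1%.

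SOX15 and SOX9 followed at a much lower level. SOX9, which directs cartilage and many epithelial progenitors, had 0.201, 0.213 and 0.236 FPKM in control libraries and 0.233, 0.191 and 0.223 in knockdown libraries. SOX15 had 0.339, 0.475 and 0.328 FPKM in control libraries and 0.518, 0.287 and 0.526 in knockdown libraries. The levels of these 2 genes did not overlap, but they rested on 24 to 35 counts per library for SOX9 and 14 to 29 for SOX15. In level, SOX9 was above 9.25% of the tested genes and SOX15 above 15.9%.

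**Figure D1:**
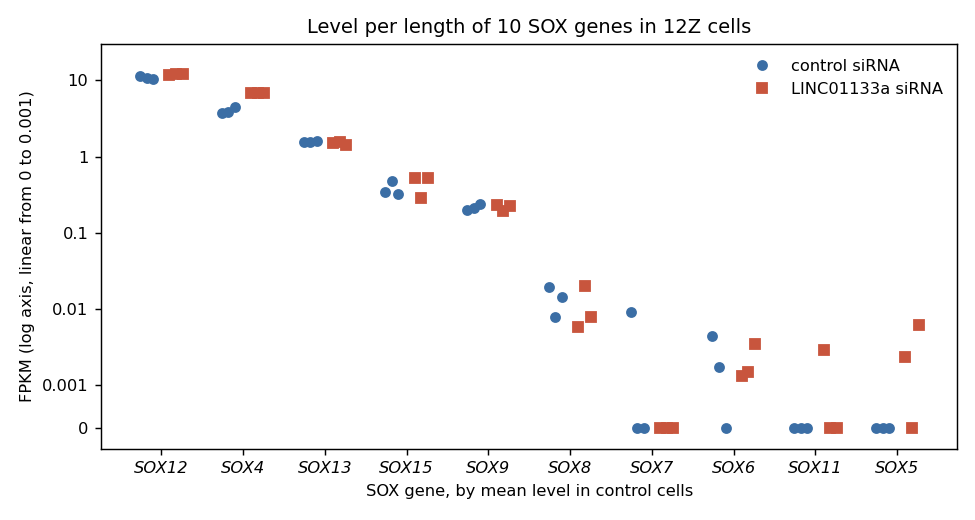
Level of the 10 SOX genes in FPKM on a log axis (linear between 0 and 0.001), for each of 3 control (circles) and 3 knockdown (squares) libraries, ordered by the mean level in control cells. SOX12, SOX4 and SOX13 lie apart at the top in every library, and SOX8, SOX7, SOX6, SOX11 and SOX5 lie at or under 0.0201 FPKM.

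The other 5 genes were at the limit of detection. SOX11, which is prominent in embryonic neurons, had 1 count in knockdown library 1 and 0 in the other 5 libraries. SOX5 had 0 counts in the 3 control libraries and 1, 0 and 2 in knockdown libraries 1 to 3. SOX7, a SOXF factor of endothelium, had 1 count in control library 1 and 0 elsewhere. A count of 0 allows up to 3 counts in a library, which equals 0.00975 to 0.0117 FPKM over the 5 libraries in which SOX11 had none, a limit that covers counting error only.
SOX6 had 3, 1 and 0 counts in control libraries and 1, 1 and 2 in knockdown libraries, and SOX8, the relative of SOX9, had 3, 1 and 2 counts and 1, 3 and 1 counts. No difference between control and knockdown cells was detectable for these 5 genes at this depth, and none of them passed the filter for testing. In the annotation, 1268 of the 3215 exonic bases of SOX7 are shared with PINX1 on the same strand, where reads cannot be assigned to either gene, so its count covers part of the transcript.

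After LINC01133 knockdown, SOX4 rose to 1.695 times its control level, SOX12 rose by a small amount that did not reach a fold change of 1.5, and SOX13, SOX9 and SOX15 did not pass the test. SOX4 (ENSG00000124766.7) is a gene of a single exon on chromosome 6 (GRCh38, bases 21593751 to 21598619, plus strand). Normalized counts of SOX4 were 594, 599 and 704 in control libraries 1 to 3 and 1086, 1066 and 1063 in knockdown libraries 1 to 3. The lowest knockdown library lay well above the highest control library, and the knockdown libraries differed less among themselves than the control libraries did, of which control library 3 was the highest. The means were 632 ± 61.7 and 1072 ± 12.4 (SD, n = 3 each), which edgeR fitted as a log2 fold change of 0.76 with a standard error of 0.064 and an adjusted p of 6.4e-07. Of the 15155 genes tested, 501 had a higher log2 fold change than SOX4.

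SOX12 (ENSG00000177732.8) lies on chromosome 20 from 325552 to 330224, also in a single exon on the plus strand. Its normalized count was 1745, 1623 and 1581 in control libraries and 1765, 1852 and 1829 in knockdown libraries, so the groups were apart by a narrow gap between control library 1 and knockdown library 1. In edgeR its log2 fold change was 0.14 with a standard error of 0.046 and an adjusted p of 0.026, a rise of 9.91%. The median size of the log2 fold change over all tested genes, in either direction, was 0.21. With DESeq2 the adjusted p was 0.063, and edgeR gave 0.093 when control replicate 3 was left out, 0.091 when knockdown replicate 2 was and 0.065 when knockdown replicate 3 was, so whether SOX12 passed the adjusted p cutoff depended on the tool and on single libraries. Its log2 fold change stayed positive, at 0.13 with DESeq2 and 0.11 to 0.18 with any 1 library left out. The gene NRSN2-AS1, a long noncoding RNA on the opposite strand whose span covers SOX12 without sharing exonic bases, rose with a log2 fold change of 0.69 and an edgeR adjusted p of 3.8e-04, at 109 ± 9.40 normalized counts in control and 175 ± 17.6 in knockdown cells (SD, n = 3 each).

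SOX13 had normalized counts of 375, 379 and 390 in control libraries and 359, 379 and 345 in knockdown libraries, with groups that overlapped. The fitted log2 fold change of SOX13 was -0.08, close to its standard error of 0.071, with an edgeR adjusted p of 0.40. For SOX9, the normalized counts were 25.6, 27.0 and 30.1 in control and 29.7, 24.3 and 28.4 in knockdown libraries, a log2 fold change of -0.0013 (standard error 0.21) whose sign changed with the scaling. SOX15, a factor described in muscle precursors and placenta, had 16.1, 22.5 and 15.5 normalized counts in control and 24.6, 13.6 and 25.0 in knockdown libraries, a log2 fold change of 0.23 (standard error 0.30). For both the spread between libraries exceeded the difference. The log2 fold change of SOX15 also rested on single libraries, at 0.082 without knockdown replicate 1 and 0.12 without knockdown replicate 3, 0.15 and 0.14 without control replicates 1 and 3, and 0.40 and 0.47 without control replicate 2 and knockdown replicate 2.
On the strand opposite to SOX15, 327 counts lay over its exons, 73.6% of all stranded counts there, and MPDU1 shares 35 exonic bases with it on that strand. For SOX6, 96.9% of the stranded counts (247 counts) lay on the opposite strand. For SOX4, SOX12 and SOX13 this share was under 1%, at 0.617%, 0.961% and 0.447%.

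**Figure D2:**
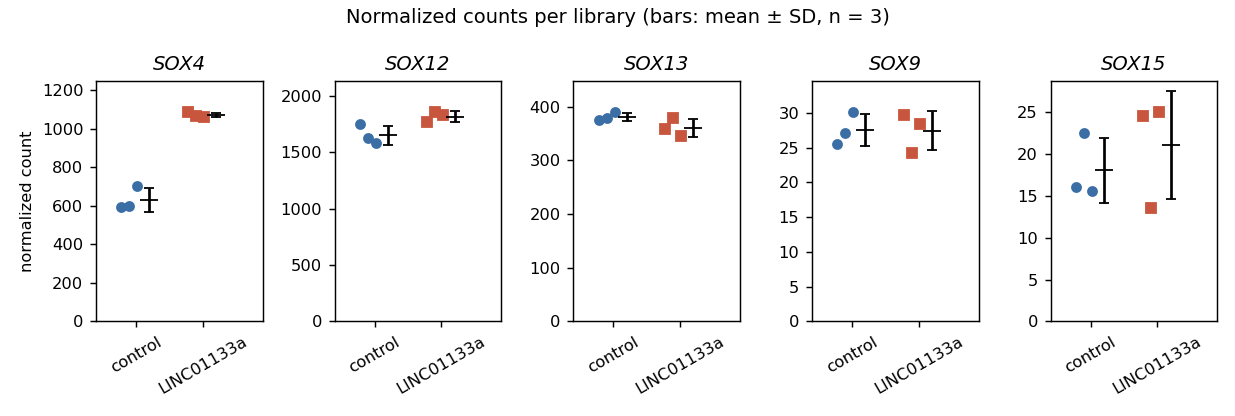
Normalized counts of the 5 SOX genes that were tested, each on its own axis from 0, for 3 control (circles) and 3 knockdown (squares) libraries with the mean ± SD (n = 3) beside them. SOX4 lies at 594 to 704 in control and 1063 to 1086 in knockdown libraries, while the groups of SOX13, SOX9 and SOX15 overlap.

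Of the 5 SOX genes tested, 1 passed a fold change over 1.5 with an edgeR adjusted p under 0.05, and it was higher. Over all genes tested, 11.7% passed, 5.3% as higher and 6.43% as lower, so 1 of 5 is no result about the family. With library size alone as scaling, 55.9% of the genes called were higher against 45.2% with TMM normalization, and SOX4 passed under both. With the adjusted p alone, SOX4 and SOX12 passed, against 48.3% of all genes tested. The same 2 genes had no overlap between groups and were higher in knockdown cells, which held for 28.3% of all genes tested, and 57.3% had no overlap in one direction or the other.

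Whether SOX4 changed by more than its relatives was tested on the ratio of counts within each library, which does not depend on scaling, for the 4 other SOX genes with at least 10 counts in every library. The SOX4 to SOX12 ratio was 0.341, 0.369 and 0.445 in control libraries and 0.615, 0.576 and 0.581 in knockdown libraries. In control cells there was thus less than 1 SOX4 count for every 2 of SOX12, and in knockdown cells more. On the log2 scale the ratio was -1.39 ± 0.20 in control and -0.76 ± 0.052 in knockdown cells (SD, n = 3 each), a difference of 0.63 (standard error 0.12) or 1.54-fold.
The SOX4 to SOX13 ratio was 1.59, 1.58 and 1.81 in control libraries and 3.02, 2.82 and 3.08 in knockdown libraries, a log2 difference of 0.84 (standard error 0.074). The SOX4 to SOX9 ratio was 23.3, 22.2 and 23.4 in control libraries and 36.6, 43.9 and 37.5 in knockdown libraries, a log2 difference of 0.77 (standard error 0.086). That standard error comes from the spread between these libraries alone. SOX9 had only 24 to 35 counts per library, and edgeR gave its own log2 fold change a larger standard error, 0.21. For these 3 ratios the groups did not overlap, and the exact permutation test, two-sided over 3 against 3 libraries, gave p = 0.10 for each, the smallest it allows, with a Benjamini-Hochberg adjusted p of 0.13 over the 4 ratios. The design therefore cannot reach 0.05 in this test. The SOX4 to SOX15 ratio overlapped between groups, with a log2 difference of 0.58 (standard error 0.36, exact permutation p = 0.30). It was 0.37 without control replicate 2 and 0.29 without knockdown replicate 2.

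**Figure D3:**
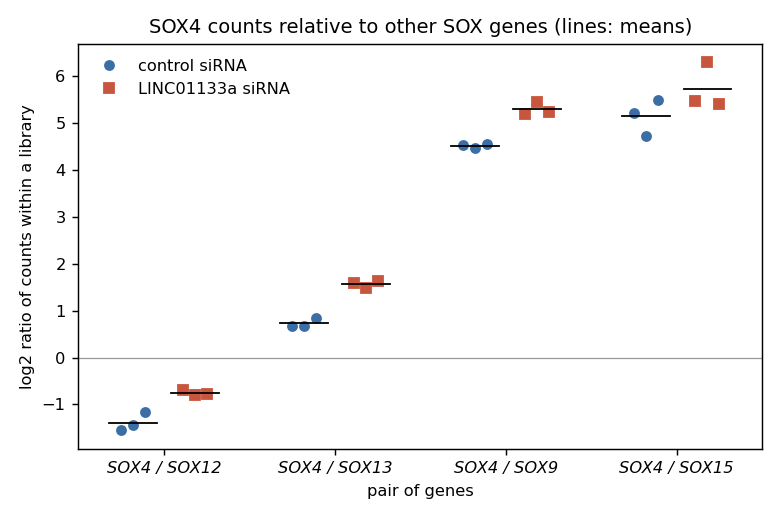
Log2 ratio of the counts of SOX4 to those of SOX12, SOX13, SOX9 and SOX15 within each library, for 3 control (circles) and 3 knockdown (squares) libraries, with lines at the means. The ratio to SOX12 lies at -1.39 on average in control and -0.76 in knockdown cells, and only the ratio to SOX15 overlaps between the groups.

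Summed over the 10 genes, the SOX level was 17.1 ± 0.32 FPKM in control and 21.0 ± 0.14 FPKM in knockdown cells (SD, n = 3 each). SOX4 made up 23.4% ± 2.34 of this sum in control and 32.4% ± 0.59 in knockdown cells, and SOX12 63.7% ± 2.54 and 57.2% ± 1.04 (SD, n = 3 each). The SOXC genes together rose from 14.9 ± 0.39 to 18.8 ± 0.23 FPKM, a description for which no test is given because the genes were chosen with earlier results known.

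The promoters of SOX4 and SOX12, the 2 SOX genes with non-overlapping groups, are shown because they differ in composition although the genes belong to one subgroup. Both are RefSeq sequences of GRCh38.p14, each a window of 300 bases around the annotated start, 5′ to 3′ on the plus strand, with CG dinucleotides in capitals. An entry was found for 5 of the 10 genes.
SOX4, chr6:21593501-21593800: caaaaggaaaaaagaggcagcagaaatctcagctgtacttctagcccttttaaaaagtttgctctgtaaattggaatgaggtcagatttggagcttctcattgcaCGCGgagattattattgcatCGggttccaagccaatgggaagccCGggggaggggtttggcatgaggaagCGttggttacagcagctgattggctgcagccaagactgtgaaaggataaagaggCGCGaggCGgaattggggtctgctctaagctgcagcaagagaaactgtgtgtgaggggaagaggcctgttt
SOX12, chr20:325302-325601: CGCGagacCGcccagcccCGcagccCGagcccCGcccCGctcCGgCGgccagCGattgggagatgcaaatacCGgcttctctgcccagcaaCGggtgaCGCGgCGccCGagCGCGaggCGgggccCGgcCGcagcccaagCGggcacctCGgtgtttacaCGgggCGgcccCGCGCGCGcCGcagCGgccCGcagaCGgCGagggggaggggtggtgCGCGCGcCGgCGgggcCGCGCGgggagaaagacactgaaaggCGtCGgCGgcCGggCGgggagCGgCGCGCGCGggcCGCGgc
The SOX4 window holds 8 CG dinucleotides and 49.3% G or C, and the SOX12 window 54 and 80.3%. Over 35116 promoter windows of the same length the medians were 14 and 58.7%.

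An siRNA can lower other RNAs through short matches in their 3′ UTR to its seed, bases 2 to 8 of either strand, so the SOX transcripts were searched for these matches. The strands of siRNA LINC01133a are shown with the seed in capitals, followed by the sites in the SOX genes that were tested, with the matching bases in capitals.
Antisense strand: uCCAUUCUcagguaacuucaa
Sense strand: gAAGUUACcugagaauggatt
SOX12 site for the antisense seed: agtgagactgAGAATGGattccgagta
SOX13 site for the sense seed: ataatgatgaGTAACTTaaccagcaca
SOX9 site for the sense seed: agatacttctGTAACTTaagaaacctg
The 3′ UTR of SOX4, of 2660 bases, held no match to either seed. That of SOX12 held 1 match to the antisense seed, the strand meant to bind the target, and SOX13 and SOX9 held 1 match each to the sense seed. Each of these matches is followed by an A, which faces the first base of the siRNA strand. In SOX12 this A pairs with the u of the antisense strand. The ctg before the SOX12 match also pairs, with the cag after the seed, so the paired stretch is longer there. In SOX13 and SOX9 the A faces the g of the sense strand and does not pair. A match to the antisense seed was present in 17.1% and one to the sense seed in 13.6% of 12533 tested genes with an annotated 3′ UTR. A match is a description of the sequence, and its part in the level of these genes was not tested.

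No other gene near SOX4 was expressed strongly enough to be tested. Within 500 kb of its start, 10 other genes are annotated and 0 of them passed the filter. The most counted was CASC15, a long noncoding RNA that starts 70433 bases downstream on the same strand, with 15, 4 and 11 counts in control and 7, 4 and 5 in knockdown libraries. A noncoding RNA on the opposite strand that shares 168 exonic bases with SOX4 had 1 count in all.

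The genes whose pattern over the 6 libraries was most like that of SOX4 were LONRF1, ALDH5A1, WBP1L, C1orf198 and HDAC1. Likeness was measured as the root mean square difference of log2 CPM over the 6 libraries after centring each gene on its mean, among the 11177 other genes whose normalized counts averaged at least 100. It was 0.049 for LONRF1 and for ALDH5A1, a mitochondrial dehydrogenase of GABA breakdown, 0.051 for WBP1L and C1orf198, and 0.054 for HDAC1, a histone deacetylase, against a median of 0.40. HDAC1 had 4702 ± 374 normalized counts in control and 8287 ± 136 in knockdown cells (SD, n = 3 each), and ALDH5A1 558 ± 61.6 and 918 ± 35.96. By the same measure SOX12 differed from SOX4 by 0.33 and took place 3344, and SOX13 by 0.43 and place 6691.

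SOX factors work beside TCF and LEF proteins, which carry a related HMG box and act with beta-catenin in WNT signalling. Of 5 such genes, 4 were tested and 1 passed both cutoffs, against 11.7% of all genes tested. It was CTNNB1, which encodes beta-catenin. CTNNB1 had 10475 ± 161 normalized counts in control and 6434 ± 71.8 in knockdown cells (SD, n = 3 each). In edgeR it changed by -0.70 on the log2 scale, with an adjusted p of 5.3e-09. TCF7L2 and TCF7L1 had log2 fold changes of 0.14 and 0.15, TCF7 one of -0.04, and LEF1 had 6 counts in all.

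TGF-beta signals raise SOX4 in several epithelia, and the ligands and receptors of this pathway moved unequally. Of the 6 genes, all tested, 1 passed the cutoffs as higher and 2 as lower, against 5.3% and 6.43% of all genes tested. The adjusted p of the other 3 was under 0.05 with a fold change under the cutoff. Of all genes tested, 48.3% had an adjusted p under 0.05. The ligand gene TGFB2, which like SOX4 was followed up in the study after these libraries were sequenced, had 1063, 1208 and 974 normalized counts in control libraries and 3058, 3110 and 2590 in knockdown libraries. The ligand gene TGFB3 fell from 170 ± 14.5 to 110 ± 8.59 and the co-receptor gene TGFBR3 from 937 ± 83.2 to 471 ± 29.1 (SD, n = 3 each), with log2 fold changes of -0.62 and -0.99. The call of TGFB3 was lost with library size alone and without knockdown replicate 2, at -0.56 and -0.58. TGFBR1 and TGFBR2, which encode the signalling receptors, had log2 fold changes of -0.46 and -0.33, and TGFB1 one of -0.24. The median of the list was -0.39, against 0.0032 over all genes tested.

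Among 11 genes described as targets of SOX4 or SOX11 in other cells, 10 were tested, 0 passed as higher and 1 as lower. Over all genes tested, 5.3% passed as higher and 6.43% as lower. The lower gene was PTCH1, the Hedgehog receptor, at 265 ± 33.2 and 171 ± 28.0 normalized counts (SD, n = 3 each), and its call was lost with library size alone and when control replicate 2 or either of knockdown replicates 1 and 2 was left out. DICER1, which encodes the enzyme that cuts small RNA precursors, had a log2 fold change of 0.35, and EZH2, a histone methyltransferase, one of 0.15. EGFR and DHX9 had log2 fold changes of -0.44 and -0.33, and TEAD2 one of -0.0027. By adjusted p alone, 3 of the 10 were higher and 3 lower, against 23.3% and 25% of all genes tested. The median log2 fold change of the list was 0.037.

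The EMT factors, with which SOX4 is often grouped, did not rise with it. Of the 6 genes SNAI1, SNAI2, ZEB1, ZEB2, TWIST1 and TWIST2, all tested, 0 passed both cutoffs, against 11.7% of all genes tested. By adjusted p alone, 4 were lower and 0 higher, against 25% and 23.3% of all genes tested. The log2 fold changes of those 4 were -0.58 for SNAI1, -0.49 for SNAI2, -0.51 for TWIST2 and -0.30 for ZEB1, while ZEB2 and TWIST1 had 0.03 and 0.09. SNAI1 lay at the cutoff, and the number of factors called was 3 without control replicate 3 and 1 without control replicate 2 or knockdown replicate 2.

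Of 11 cartilage genes that SOX9 drives together with SOX5 and SOX6, 4 were tested. Of these, 0 passed in either direction, against 11.7% of all genes tested, and 0 by adjusted p alone, against 48.3%. The 4 tested were MATN3, a matrix protein gene with 4633 counts over the 6 libraries, COL9A3 with 526, COL9A2 with 398 and COL11A2 with 129. In level, MATN3 was above 64.2% of the tested genes. The other 7 had at most 23 counts in all, among them COL2A1, the main cartilage collagen gene, with 10 and ACAN, COL9A1 and HAPLN1 with 0. Of 7 endothelial genes linked to SOXF factors, 4 were tested and 3 passed, against 11.7% of all genes tested. The tested gene that did not pass, EPHB4, had a log2 fold change of -0.13. In normalized counts (SD, n = 3 each), CDH5 rose from 63.4 ± 4.56 to 174 ± 17.8, while KDR fell from 1520 ± 13.8 to 950 ± 27.9 and TIE1 from 170 ± 7.33 to 56.4 ± 3.88. The list thus moved in both directions. Of the SOXF genes looked at here, which are not the whole subgroup, SOX7 gave 1 count in all. SOX18, given under the other observations, had a log2 fold change of -0.997. Their part in these changes was not tested.

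**Figure D4:**
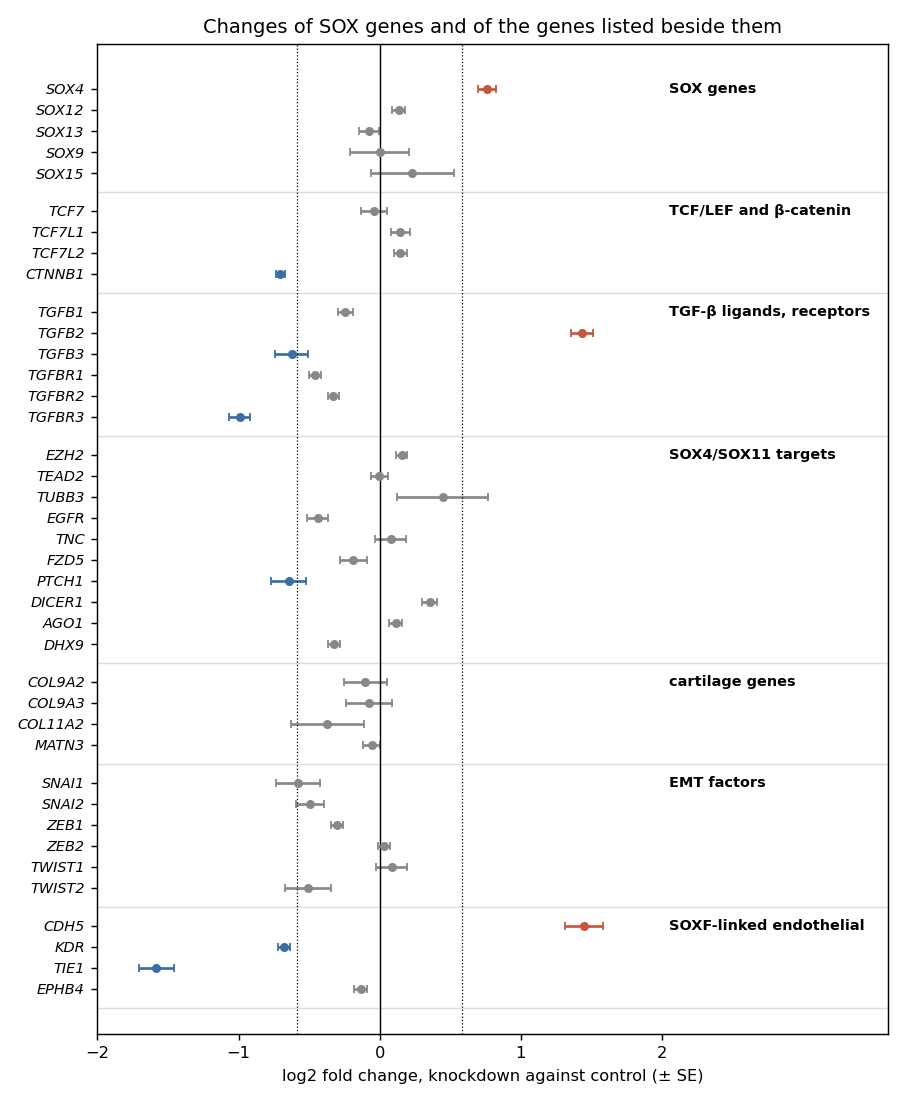
Log2 fold change ± standard error, knockdown against control (n = 3 each), of the 5 SOX genes tested and of the tested genes of the 6 lists, with dotted lines at a fold change of 1.5 in either direction. Coloured points passed a fold change over 1.5 and an adjusted p under 0.05 (red higher, blue lower), and SOX4 at 0.76, TGFB2 at 1.44 and CDH5 at 1.45 are the 3 that were higher.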

How the data were processed

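RNA-sequencing counts of 6 libraries of 12Z cells were used. The authors made poly-A libraries, aligned paired reads with STAR 2.7.6a to the GRCh38.p13 assembly (GENCODE v36 gene models), discarded reads with more than 1 mapping place and deposited raw counts for each gene, not normalized. Of the 2 stranded count columns, the one with 94.0% of the stranded counts was used here. Genes passed filterByExpr of edgeR 4.0.16 (R 4.3.3, minimum count 10), were scaled by TMM and compared between groups by the quasi-likelihood test, with p-values adjusted by Benjamini-Hochberg over 15155 genes. The cutoffs, a fold change over 1.5 and an adjusted p under 0.05, follow the study's methods, which used DESeq2. Normalized counts are counts scaled to the mean effective library size. Symbols, positions, exon lengths and 3′ UTRs came from GENCODE v44 on GRCh38, matched by gene ID (60419 of 60660), and its models of SOX5, SOX6 and SOX12 have other versions than those counted. The edgeR and DESeq2 fits were tested on simulated counts for recovery of planted changes, with the same spread set for every gene. The other steps were not simulated. The study calls the libraries of a group biological replicates, while the labels do not say whether they came from separate cultures, and p-values measure only the spread between these libraries.

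The genes named are the 10 SOX genes, the target, genes of the lists and markers, the 5 genes most like SOX4, genes within 500 kb of SOX4 and genes overlapping a SOX gene. The members and lists were chosen with earlier results of these data known. Alternatives were DESeq2 1.42.0, median-of-ratios factors, library size alone, other filters, unstranded counts, a block for the replicate number, each library left out and, chosen after seeing the data, glmTreat.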

Additional observations from a re-analysis of the deposited data

How the results depend on the processing

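The rise of SOX4 held under all 13 alternatives, with log2 fold changes from 0.72 to 0.85 and adjusted p values of 1.5e-05 or less. SOX4 remained the 1 SOX gene called in each of them, whereas the adjusted p alone called 2, and 7315 genes over the whole table in place of 1778. A test against a fold change of 1.5 (glmTreat, chosen after seeing the data) called 578 genes, SOX4 among them. SOX12 had a log2 fold change of 0.13 with DESeq2, with an adjusted p over 0.05 (0.063), and of 0.11 to 0.18 with each library left out. The cause was not tested. The difference of SOX9 from 0 had no stable sign, at 0.060 with library size alone, 0.0025 with at least 10 counts in every library, 0.013 with the unstranded column, 0.0039 with the replicate block, and -0.067 to 0.083 with each library left out. SOX15, at 0.23, moved to 0.064 with the unstranded column and to between 0.082 and 0.47 with each library left out, and the SOX4 to SOX15 log2 ratio to between 0.29 and 0.75. The replicate numbers did not pair the libraries (correlations of -0.015, 0.0049 and 0.057 between libraries of the same number), and with the replicate block SOX4 changed by 0.77, SOX12 by 0.14 1747 genes were called and 1 EMT factor passed in place of 0. Depth limits SOX5, SOX6, SOX7, SOX8 and SOX11, which had at most 3 counts in any library.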

Other observations

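One further SOX gene, SOX18, was looked up after its values were seen. Other SOX genes outside the listed ones are not given. SOX18, a SOXF factor of endothelium, had 71.9, 50.7 and 50.8 normalized counts in control libraries 1 to 3 and 28.8, 27.2 and 31.8 in knockdown libraries 1 to 3. The groups did not overlap and knockdown cells were lower, which held for 29% of all genes tested. SOX18 fell with a log2 fold change of -0.997 and a standard error of 0.20 in edgeR, where the adjusted p was 0.0012, and DESeq2 gave -0.99 with an adjusted p of 0.0037. Over the alternatives it ranged from -1.08 to -0.80. Among the endothelial genes linked to SOXF factors, TIE1 and KDR fell and CDH5 rose in the same libraries, and a part of SOX18 in this was not tested.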
